A study of Mus musculus with 6 samples.

Results

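The lysyl oxidase family was examined in enterospheres, the free-floating spheroids that form when cells dissociated from the muscle layers of the newborn mouse gut are cultured with growth factors. Members were chosen by gene symbol as Lox, Loxl1, Loxl2, Loxl3 and Loxl4, which is 5 genes beside the 19938 genes that had at least 1 transcript cluster of their own on the array. Of the 5, 4 were measured by 5 clusters, since Loxl4 had 2. The only cluster annotated to Loxl2 is annotated to a further gene symbol as well, so no value is given for Loxl2.

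Total RNA from neonatal C57BL/6 enterospheres was hybridised to 6 GeneChip Mouse Gene 1.0 ST arrays, 3 per group, with spheres from 3 mice per sample according to the labels. The proliferation group stayed for 11 days in medium supplied daily with EGF (10 ng/mL by the labels) and FGF (20 ng/mL). The differentiation group had the same medium for 9 days and was then moved for 2 days to medium without either factor, to which ascorbic acid-2-phosphate had been added. Loss of the growth factors and gain of ascorbic acid-2-phosphate therefore cannot be told apart. The methods of the study differ from the labels in the number of pups and in the EGF concentration. Spheres were picked while floating in order to leave behind adherent fibroblasts and smooth muscle cells, but they remain a mixture of cell types. A change in a gene can thus come from more cells of a type or from more RNA per cell, which these arrays cannot distinguish.

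Lysyl oxidases are secreted copper enzymes that oxidise the side chains of lysine and hydroxylysine in collagen and elastin. The aldehydes that result react with neighbouring chains and form the covalent cross-links that give collagen fibrils and elastic fibres their strength. Lox is made as a proenzyme that tolloid-type proteases cut to release the active enzyme, and Loxl1, its nearest relative, is best known for elastic fibre upkeep. Loxl2, Loxl3 and Loxl4 form the other branch of the family and carry scavenger receptor domains in front of the catalytic domain. In the gut wall these enzymes serve the matrix around smooth muscle and enteric ganglia, which is laid down mainly by fibroblasts and smooth muscle cells.

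Lox and Loxl4 were higher in differentiating than in proliferating enterospheres, by 3.25-fold and 2.43-fold, while Loxl1 and Loxl3 did not pass the test. Among the 4 measured members 2 rose and 0 fell, where limma, with an adjusted p under 0.05, had 2.94% of all genes rising and 2.97% falling. The groups did not overlap in 2 of the 4 members, both higher in differentiation, and in 27.5% of all genes, of which those higher in differentiation made up 14.6% of all genes. Both Lox and Loxl4 stand in a table of matrix genes that the study chose on these samples, so their direction is not independent evidence. The same holds for Col27a1, Plod3 and Colgalt2, named below, which stand in that table too. It also holds for the markers Tagln, Actg2, Acta2, Cnn1, Gfap, S100b and Tubb3, which stand in other tables of the study. Values are on the log2 scale, as normalised by the authors, and differences are differentiation minus proliferation.

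Lox (transcript cluster 10458894), which cross-links fibrillar collagen and elastin, read 6.71, 6.44 and 6.51 on proliferation arrays 1 to 3 and 8.22, 8.06 and 8.49 on differentiation arrays 1 to 3. All differentiation arrays lay above all proliferation arrays, with a gap of 1.35 between the groups that was wider than the range within either group. The mean went from 6.55 ± 0.14 to 8.25 ± 0.22 (SD, n = 3). The difference was 1.70 with a 95% interval from 1.38 to 2.02 (standard error 0.13, adjusted p = 0.00313 from limma). In linear terms this interval runs from 2.60-fold to 4.06-fold. Lox had the 50th largest increase of the 19938 genes. With each array left out in turn the difference stayed between 1.58 and 1.80, and the adjusted p from limma lay between 0.00786 and 0.0284. With the methods' t-test, Benjamini-Hochberg adjusted, Lox lay just inside the threshold (adjusted p = 0.0496).

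Loxl4, a member of the scavenger receptor branch, was measured by a pair of transcript clusters. The brighter of them (10467768) read 6.90, 7.20 and 6.98 in proliferation and 8.20, 8.24 and 8.48 in differentiation, a mean of 7.03 ± 0.16 against 8.31 ± 0.15 (SD, n = 3). On the other cluster (10467766) the arrays read 5.97, 6.41 and 6.11 in proliferation and 7.38, 7.57 and 7.37 in differentiation. The groups did not overlap on either cluster, and proliferation replicate 2 was the highest of its group on both. The brighter cluster gave a difference of 1.28 with a 95% interval from 0.99 to 1.56 (standard error 0.12, adjusted p = 0.00438 from limma). The dimmer cluster gave 1.27 with an interval from 0.96 to 1.59 (standard error 0.13, adjusted p = 0.00571 from limma), so the same change was read from a separate set of probes on the same arrays. The increase of Loxl4 ranked 105th of the 19938 genes. It passed limma's test with each array left out, with an adjusted p between 0.00702 and 0.0329 on the brighter cluster. With the methods' t-test, Benjamini-Hochberg adjusted, Loxl4 lay just outside the threshold (adjusted p = 0.0565, and 0.0676 on the dimmer cluster).

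Loxl4 is the member that rose for which a promoter is printed, to show the stretch in front of the start of a gene whose change was read on a pair of clusters. The 250 bases before its start lie at chr19:42612807-42613056 on the minus strand of GRCm38.p6 (RefSeq). They are given 5′ to 3′, with capitals for every match, on either strand, to the motifs searched.
Loxl4: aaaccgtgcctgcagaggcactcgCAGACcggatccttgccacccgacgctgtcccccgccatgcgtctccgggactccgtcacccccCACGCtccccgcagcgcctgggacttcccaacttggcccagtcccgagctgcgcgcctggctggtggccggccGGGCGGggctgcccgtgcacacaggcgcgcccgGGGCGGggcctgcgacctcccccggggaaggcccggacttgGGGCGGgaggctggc
The GC box GGGCGG occurred 3 times, with its first letter 89, 56 and 15 bases before the start, and at least 1 match was present in 32.7% of 32851 promoter windows of the same length. A stretch that is rich in G and C holds such letters more readily, and this window was 76.0% G and C against a median of 52.4%. The core of the hypoxia response element in its form GCGTG matched once, on the opposite strand, 162 bases before the start (28.2% of windows), and the SMAD element CAGAC matched once, 226 bases before it (42.2% of windows). The hypoxia core in its form ACGTG, the AP-1 site TGANTCA and the TATA box TATAAA had 0 matches here and were present in 16.6%, 6.75% and 12.4% of windows. No motif overlapped another. These matches describe letters and not binding.

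Loxl1 (transcript cluster 10594066) read 9.73, 8.93 and 9.26 in proliferation and 9.50, 9.53 and 9.71 in differentiation. The highest and the lowest of the 6 values were both proliferation arrays, so the groups overlapped. The means were 9.31 ± 0.40 and 9.58 ± 0.11 (SD, n = 3), a difference of 0.28 with a 95% interval from -0.19 to 0.74 (adjusted p = 0.589 from limma). The interval leaves room for an increase of up to 1.67-fold. The difference was 0.49 without proliferation replicate 1 (adjusted p = 0.146) and 0.09 without proliferation replicate 2 (adjusted p = 0.871), and neither passed limma's test. Marker lists of fibroblasts (8.87, 8.25 and 8.49 on proliferation arrays 1 to 3, as mean log2 values) and of mesothelium (6.26, 5.58 and 5.76) were likewise highest on replicate 1 and lowest on replicate 2. Those of smooth muscle (6.38, 6.33 and 6.34) and macrophages (5.11, 4.97 and 5.06) had the same order over a smaller range, and the remaining lists did not. The part of cell content in the spread of Loxl1 was not tested.

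Loxl3 (transcript cluster 10539263), another member of the scavenger receptor branch, read 8.91, 8.68 and 8.74 in proliferation and 8.65, 8.78 and 8.86 in differentiation. The groups overlapped throughout, with the proliferation arrays in the same order as for Loxl1, and the means of 8.78 ± 0.12 and 8.76 ± 0.10 (SD, n = 3) differed by -0.01 with a 95% interval from -0.25 to 0.22 (adjusted p = 0.97 from limma). In linear terms the interval excludes a change larger than 1.19-fold lower or 1.17-fold higher. Loxl3 thus had the narrowest interval of the measured members.

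**Figure D1:**
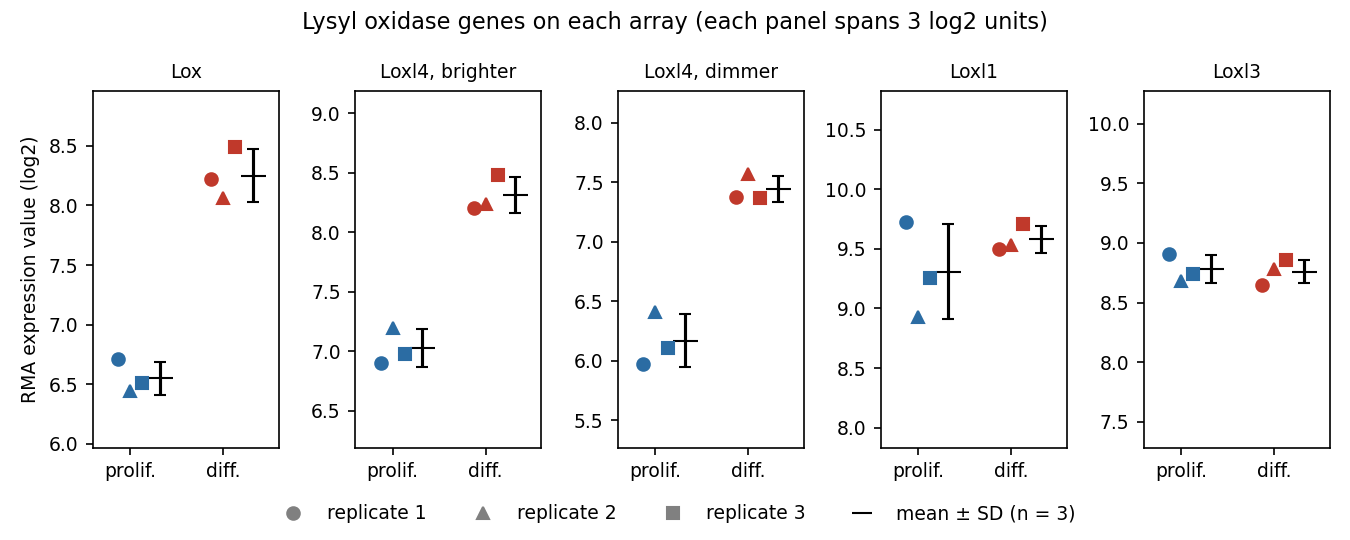
RMA expression values on the log2 scale (vertical axis) of the 5 lysyl oxidase clusters on the 3 proliferation arrays (blue) and the 3 differentiation arrays (red), with the mean ± SD of each group in black. Marker shapes are replicate numbers, and every panel spans the same number of log2 units around its own centre. Lox and both clusters of Loxl4 show separate groups, while the groups of Loxl1 and Loxl3 overlap.

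Whether 2 members changed differently was tested on the difference of their log2 values within each array, for the 6 pairs of measured members, by a two-sided exact permutation test that cannot fall below p = 0.1 with 3 arrays against 3. Lox rose by 1.71 more than Loxl3, by 1.43 more than Loxl1 and by 0.42 more than Loxl4, and in each of these pairs the groups did not overlap (exact permutation p = 0.1, and 0.12 after adjustment over the pairs). Loxl4 rose by 1.29 more than Loxl3 and by 1.00 more than Loxl1, again without overlap at the same exact p. Loxl1 and Loxl3 differed by 0.29 in their change, and the groups overlapped (exact permutation p = 0.2). With this test none of these differences could pass a threshold of 0.05.

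**Figure D2:**
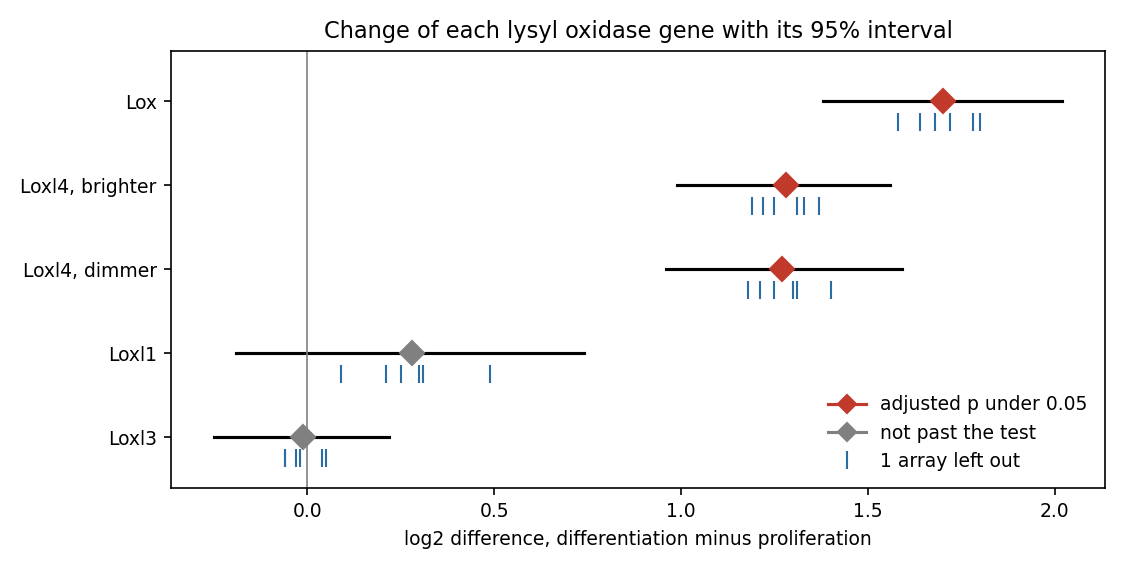
Log2 difference between differentiation and proliferation (horizontal axis) of each lysyl oxidase cluster, with its 95% interval from limma as a black line. Diamonds are red where the adjusted p was under 0.05 and grey where it was not, and blue ticks are the values with 1 of the 6 arrays left out. The ticks of Lox span 1.58 to 1.80 and those of Loxl3 lie on both sides of 0.

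Genes that work with the lysyl oxidases were grouped by role into 9 lists. In all, 92 of the 97 listed genes had a cluster of their own, and the others, Fbn1, Efemp2, Adamts2 and Fkbp10 among them, were not analysed here. Counts are set beside the 5.91% of all genes that passed limma's test in either direction and beside the median difference of 0.02 over all genes. For each list the genes at an unadjusted p under 0.05 from limma are given too (19.1% of all genes). For lists without a call, those called by the methods' t-test with its minimum fold of 1.5 (5.66% of all genes) are given as well.

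The fibrillar collagens are the main substrates of Lox. Among the 11 measured genes 1 rose and 0 fell, with a median difference of 0.17. At an unadjusted p under 0.05, 4 were higher (Col27a1, Col3a1, Col5a2 and Col5a3) and 0 lower. The gene that passed limma's adjusted test was Col27a1, a minor fibrillar collagen first known from cartilage, which read 8.40, 8.26 and 8.19 in proliferation and 8.96, 8.81 and 8.89 in differentiation. The groups of Col27a1 did not overlap (difference 0.61, standard error 0.09, adjusted p = 0.0171 from limma). Col1a1, a chain of type I collagen, had a difference of 0.17 with overlapping groups (adjusted p = 0.716), and Col3a1, the chain of type III collagen, one of 0.37 without overlap (adjusted p = 0.174). In 10 of the 11 genes the mean was higher in differentiation, by 0.61 at most. The call of Col27a1 needed differentiation replicates 1 and 3 and proliferation replicate 3, and with any of these left out its adjusted p lay between 0.0546 and 0.1 and the count was 0. Of the chains of collagen IV, the sheet-forming collagen of basement membranes and a substrate of Loxl2, 0 of 6 passed limma's test. At an unadjusted p under 0.05, 2 of them, Col4a1 and Col4a2, were lower, both with a difference of -0.29, and the methods' t-test with its minimum fold called 0.

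Among the genes of the elastic fibre, 0 of 16 passed limma's test, with a median difference of -0.05. At an unadjusted p under 0.05, 2 were higher (Ltbp1 and Ltbp4, which bind latent TGF-beta) and 3 lower (Eln and the fibulins Fbln1 and Efemp1), and the methods' t-test with its minimum fold called 0. Elastin itself, Eln, read 8.59, 9.47 and 8.68 in proliferation and 8.24, 8.24 and 8.39 in differentiation. All differentiation arrays of Eln lay below the proliferation arrays, of which replicate 2 was far above the others, and the difference of -0.63 had a 95% interval from -1.17 to -0.08 (adjusted p = 0.242 from limma). Fbln5, a fibulin that tethers Loxl1 to elastic fibres, had a difference of -0.54 with overlapping groups (adjusted p = 0.422). Proliferation replicate 1, at 9.32, was the lowest of the 6 arrays in Fbln5, and without it the gene fell by 0.88 (log2, adjusted p = 0.012), the 1 call among the 16. Without proliferation replicate 2 the difference shrank to -0.35 in both Eln (adjusted p = 0.162) and Fbln5 (adjusted p = 0.665), and that of Fbln5 was -0.39 without proliferation replicate 3 (adjusted p = 0.749).

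Proteases that process the lysyl oxidases and proteins that bind them changed in both directions: among the 12 measured genes 1 rose and 2 fell, with a median difference of 0.15. At an unadjusted p under 0.05, 4 were higher (Bmp1, Furin, Pcolce2 and Fmod) and 2 lower (Tll1 and Tll2). Tll2, tolloid-like protease 2 of the family that cuts procollagens and the Lox proenzyme, read 9.18, 8.43 and 8.85 in proliferation and 6.86, 7.02 and 6.91 in differentiation. It fell by 1.89 on the log2 scale (standard error 0.18, adjusted p = 0.00488 from limma), which is 3.71-fold. Its groups did not overlap, and its call held whichever array was left out. Tll1, its close relative, went from 8.65 ± 0.08 to 7.79 ± 0.27 (SD, n = 3) and fell by 0.86 (adjusted p = 0.0231). The founding member of that family, Bmp1, read 11.45, 11.06 and 11.27 in proliferation and 11.84, 11.82 and 11.72 in differentiation. Its groups did not overlap either, but in the opposite direction, and its difference of 0.53 lay just outside the threshold (adjusted p = 0.0584 from limma). Some of the alternatives given at the end called Bmp1.

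Furin, a convertase of the secretory pathway that removes the propeptide of Bmp1 and of many other proteins, rose by 0.52 (standard error 0.10, adjusted p = 0.0336 from limma). Fn1, which encodes fibronectin and binds Lox in the matrix, had a difference of 0.24 (adjusted p = 0.683), and Postn, which encodes periostin and brings Bmp1 to fibronectin, one of 0.19 (adjusted p = 0.33). The calls of Furin and Tll1 rested on most of the arrays. Furin passed limma's test with 1 array left out only where that was proliferation replicate 1, and otherwise had an adjusted p between 0.0833 and 0.143. Tll1 did not pass without any of the proliferation arrays or without differentiation replicate 1 (adjusted p between 0.0562 and 0.109), whereas Bmp1 passed without proliferation replicate 1 (adjusted p = 0.0389). With the methods' t-test, Benjamini-Hochberg adjusted, Furin (adjusted p = 0.1), Tll1 (adjusted p = 0.122) and Tll2 (adjusted p = 0.0695) did not pass. That test with its minimum fold and no adjustment called 2 genes of the list, Tll1 and Tll2. The count of 3 became 1 without proliferation replicate 2 or 3 or differentiation replicate 1.

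Lysyl hydroxylases prepare the lysines on which cross-links are built. Of 12 measured genes for hydroxylation, glycosylation and folding of collagen, 1 rose and 1 fell, with a median difference of -0.16. In 8 of the 12 the mean was lower in differentiation, and at an unadjusted p under 0.05, 2 were higher and 5 lower. Plod3, lysyl hydroxylase 3, which also adds sugars to hydroxylysine, read 10.23, 10.05 and 10.15 in proliferation and 11.34, 11.22 and 11.39 in differentiation. It rose by 1.17 (standard error 0.09, adjusted p = 0.00292 from limma), or 2.25-fold, with a wide gap between the groups, and kept its call whichever array was left out. Plod2, the hydroxylase of the collagen telopeptides at which Lox acts, had a difference of -0.30 (adjusted p = 0.199), and Plod1, which acts on the helix, one of -0.33 (adjusted p = 0.0809). Colgalt2, a galactosyltransferase for hydroxylysine, fell by 0.65 (adjusted p = 0.0288), a call lost without proliferation replicate 3 or any of the differentiation arrays (adjusted p between 0.0762 and 0.136), where the count was 1. The lysyl hydroxylases use ascorbate as a cofactor, and ascorbic acid-2-phosphate was present in the differentiation medium alone. Its part in these differences was not tested and cannot be told apart from that of the loss of growth factors.

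**Figure D3:**
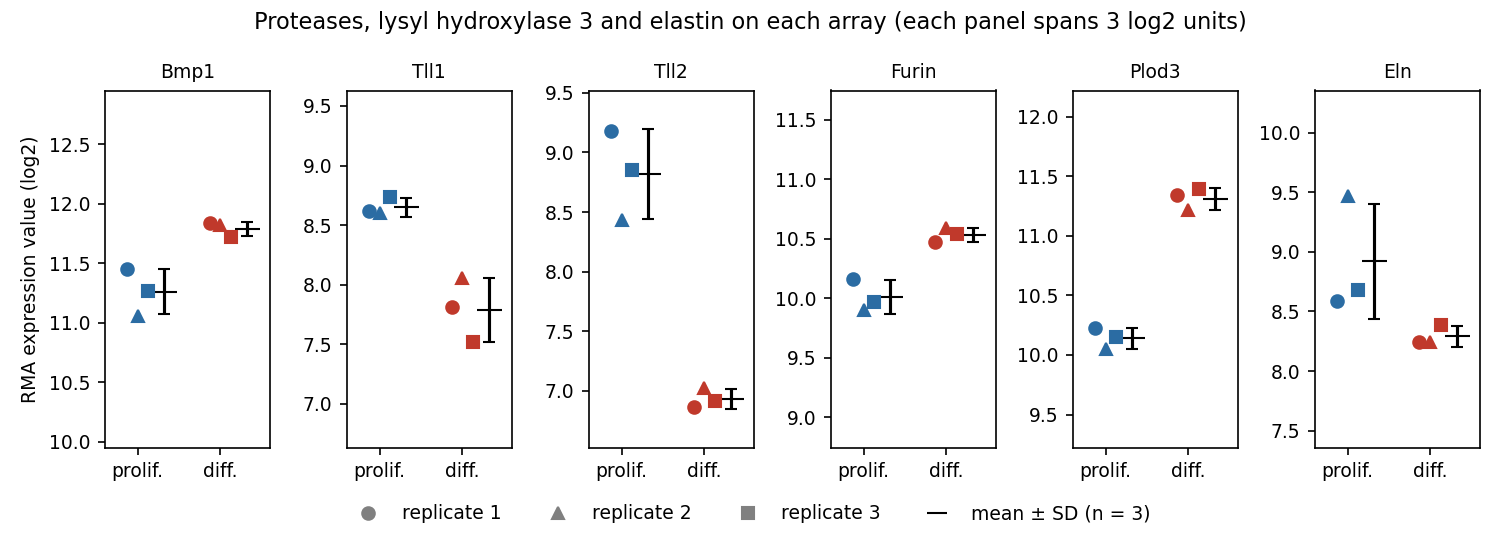
RMA expression values on the log2 scale (vertical axis) of Bmp1, Tll1, Tll2, Furin, Plod3 and Eln on each proliferation (blue) and differentiation (red) array, with the mean ± SD of each group in black and marker shapes for replicate numbers. Tll1 and Tll2 lie lower in differentiation and Bmp1, Furin and Plod3 higher, while Eln has a single high proliferation array at 9.47.

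Copper supply, on which the activity of lysyl oxidases depends, showed 0 of 11 genes past limma's test and a median difference of -0.03. At an unadjusted p under 0.05, 1 gene was lower, Slc31a1, the importer of copper at the cell surface (difference -0.22), and the methods' t-test called 0. Atp7a, the pump that loads copper onto secreted enzymes, read 9.02, 8.87 and 8.79 in proliferation and 8.69, 8.78 and 8.60 in differentiation, a difference of -0.20 (adjusted p = 0.382 from limma). The other copper amine oxidases, Aoc1, Aoc2 and Aoc3, gave 0 of 3 past the test, 1 of them at an unadjusted p under 0.05 and 0 by the methods' t-test. This was Aoc3, the vascular adhesion protein of smooth muscle and fat cells, with a difference of 0.78 (adjusted p = 0.142), which brought the count to 1 without proliferation replicate 1.

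TGF-beta signalling and hypoxia are known inducers of Lox. In the TGF-beta list 0 of 11 genes passed limma's test, with a median difference of -0.11. At an unadjusted p under 0.05, 1 was higher and 3 lower (the ligand Tgfb2, the receptor Tgfbr2 and the transducer Smad3), and the methods' t-test called 1. The higher gene was Tgfbi, a matrix protein named for its induction by TGF-beta, with a difference of 1.10 (adjusted p = 0.099) and a wide spread in proliferation (11.80, 10.59 and 11.41). The TGF-beta count was 1 without proliferation replicate 1 or 2. Of the hypoxia list 1 of 10 genes rose, 1 fell and 8 did not pass, with a median difference of -0.17. In 9 of the 10 the mean was lower in differentiation, and at an unadjusted p under 0.05, 1 was higher and 4 lower. Ndrg1, a gene induced by hypoxia and by differentiation, rose by 0.70 (adjusted p = 0.0114 from limma), and Egln3, an oxygen-sensing prolyl hydroxylase induced by hypoxia, fell by 0.70 (adjusted p = 0.00877). Neither passed without proliferation replicate 3 or differentiation replicate 1 (adjusted p between 0.0507 and 0.0686), where the count was 0. Genes of these lists that did not pass the test, other than Eln, Col1a1, Col3a1, Fbln5, Bmp1, Fn1, Postn, Atp7a and Plod2, were singled out after their values had been seen, as were the markers named next.

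**Figure D4:**
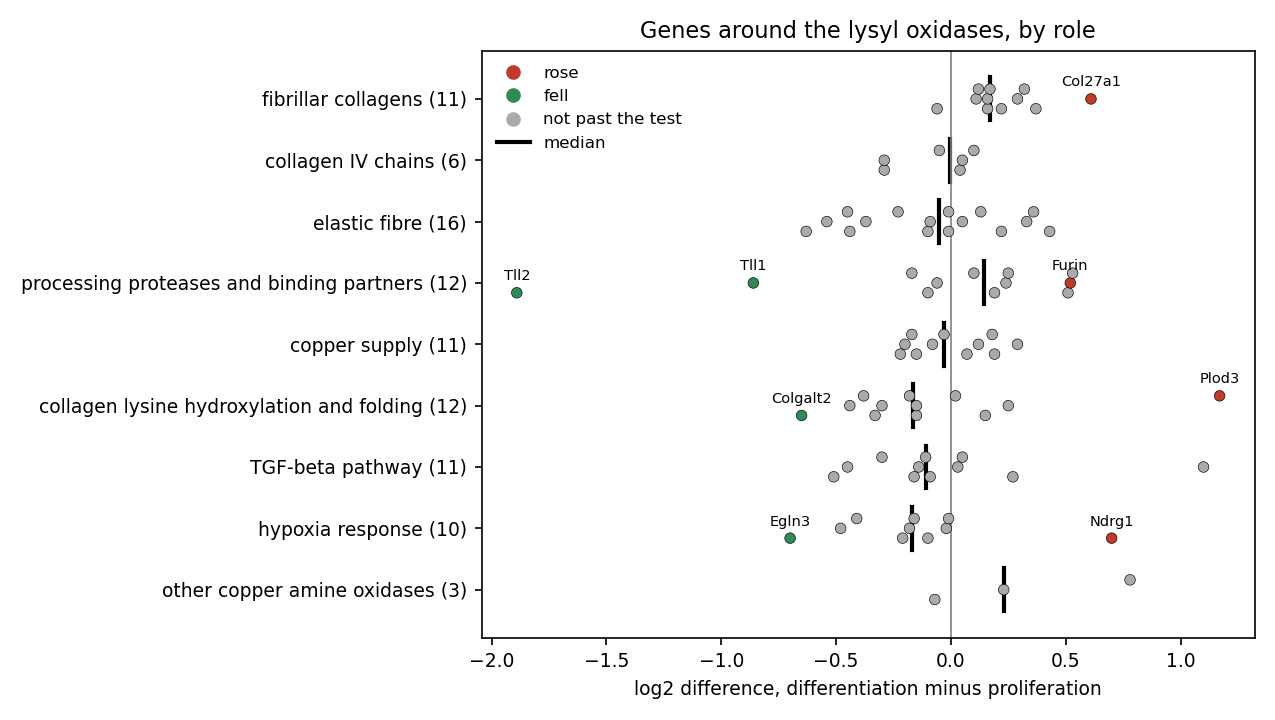
Log2 difference between differentiation and proliferation (horizontal axis) of each gene around the lysyl oxidases, by list (vertical axis, number of genes measured in brackets). Genes that rose are red and genes that fell green, by limma with an adjusted p under 0.05, the others are grey, black bars are list medians, and the vertical scatter carries no value. The medians lie between -0.17 and 0.23, and Tll2 at -1.89 and Plod3 at 1.17 are the called genes farthest from 0.

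The genes whose pattern over the 6 arrays was most like that of a member were found by the root mean square distance between log2 values centred on their own mean. For Lox these were Cdsn, which encodes corneodesmosin of cell junctions in skin (0.13), Wnt7b, a Wnt ligand (0.139), and Fmo1, a flavin monooxygenase (0.146). For Loxl4 they were Notum, a secreted enzyme that inactivates Wnt proteins (0.0752), Kera, which encodes the proteoglycan keratocan (0.0864), and Olig1, a transcription factor of the oligodendrocyte lineage (0.0924). Lox and Loxl4 lay 0.276 apart, with 55 other genes nearer to Lox than Loxl4 was and 134 other genes nearer to Loxl4 than Lox was. The measure follows mainly the size of the group difference, which for these 6 genes ran from 1.32 to 1.84, and it is a description over 6 arrays.

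Cell type markers were compared on the same arrays, since lysyl oxidases are made chiefly by mesenchymal cells. Of 8 markers of smooth muscle 4 rose and 0 fell, against 2.94% of all genes that rose, and all 8 had a higher mean in differentiation. Of these 8, 4 had a mean below the median cluster mean of 6.15, Cnn1 (5.54) among them. The mean log2 value of the list lay from 6.33 to 6.38 on the proliferation arrays and from 6.95 to 7.12 on the differentiation arrays. Tagln, Actg2, Acta2 and Cnn1, which encode transgelin, the smooth muscle gamma and alpha actins and calponin, rose by log2 differences of 1.44, 1.22, 0.76 and 0.72 (adjusted p = 0.00586, 0.00406, 0.0185 and 0.0111 from limma). All 4 stand in a table of smooth muscle genes that the study chose on these samples, so their direction is not independent evidence. That table also holds genes that were lower, Smtn, Cald1, Actn1 and Eng among them. The marker list used here leaves these out and was chosen with earlier results of these data known. Like that of smooth muscle, the list means of enteric glia (9.95 to 10.32 in proliferation, 10.34 to 10.46 in differentiation) and of macrophages (4.97 to 5.11 and 5.19 to 5.21) lay higher on every differentiation array, by a smaller margin. Lox and Loxl4 thus moved in the same direction as these 3 lists, and the part of cell content in their increase was not tested. The number of smooth muscle markers past the test was 2 without proliferation replicate 3 or differentiation replicate 1, and 0 with the methods' t-test once adjusted by Benjamini-Hochberg.

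Fibroblast markers did not move as a group, with 1 of 8 rising and list means from 8.25 to 8.87 in proliferation and from 8.55 to 8.68 in differentiation. The gene that rose was Dpt, which encodes dermatopontin, a matrix protein that binds decorin, with a difference of 1.20 (adjusted p = 0.00488 from limma). Markers of enteric glia and neurons were present in both groups, and of 5 measured in each, 1 rose and 1 fell among the glial markers (Gfap by 1.16 and S100b by -0.74) and 1 rose among the neuronal markers (Tubb3 by 0.98). Each of these calls was lost without any of 4 arrays, among them differentiation replicates 1 and 3. Endothelial, macrophage, mesothelial and epithelial markers gave 0 of 19 past limma's test, 1 of them, the endothelial Emcn, lower at an unadjusted p under 0.05 and 0 called by the methods' t-test. Of these 19, 15 had a mean below the median cluster mean of 6.15.

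**Figure D5:**
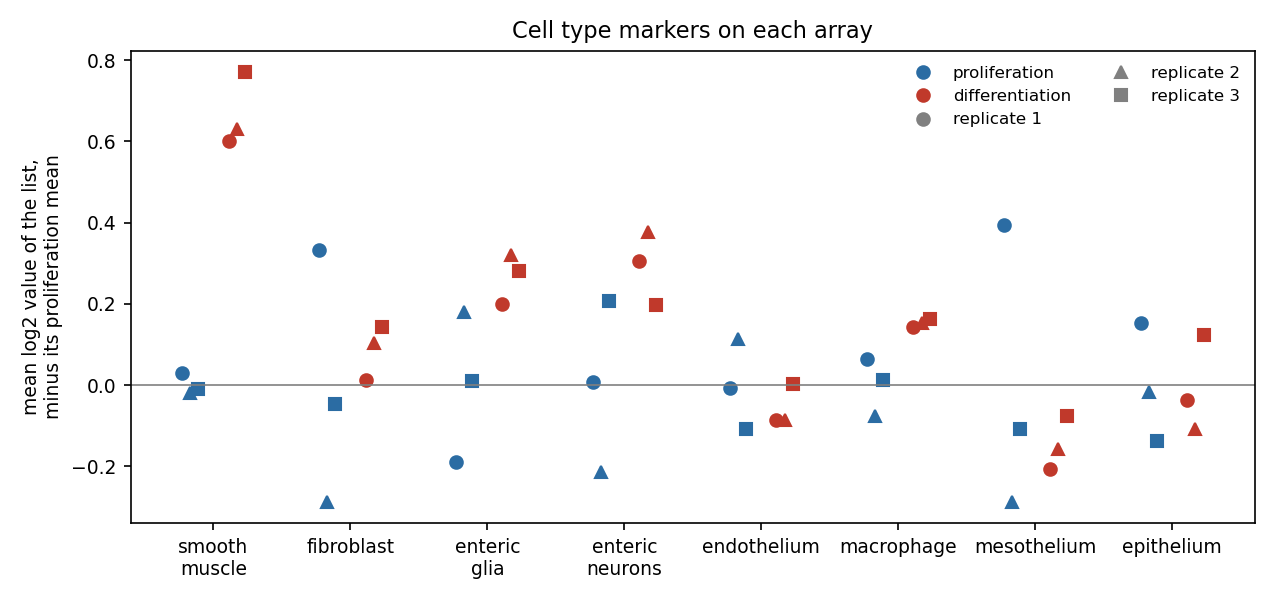
Mean log2 value of each list of cell type markers on each array, minus the mean of that list over the proliferation arrays (vertical axis), for proliferation (blue) and differentiation (red), with marker shapes for replicate numbers. The smooth muscle, enteric glia and macrophage lists lie higher on all differentiation arrays than on any proliferation array, the smooth muscle list by the widest gap. The fibroblast and mesothelial lists spread most widely among the proliferation arrays, with means from 8.25 to 8.87 and from 5.58 to 6.26.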

How the data were processed

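The authors scanned the arrays, summarised them with the RMA algorithm (Partek, by the study's methods) and deposited log2 expression values, 1 per transcript cluster and array, for 35556 clusters. The genome build is not given in the sources used here, nor is the annotation version. RMA equalises the distributions of the arrays, so that a shift of most genes at once is removed. Symbols came from the platform annotation, updated by Entrez identifier, and of several clusters of a gene the one used had the highest mean over the 6 arrays. The test was the linear model of limma 3.58.1 with eBayes, run in R 4.3.3, two-sided, on all clusters without a filter, with p-values adjusted by Benjamini-Hochberg. The members and lists were chosen with earlier results of these data known. Named genes were all member clusters, up to 3 called genes per list with the largest difference, 10 genes always named, and the 3 genes most like each called member. The steps were tested on simulated data (3 arrays against 3, 35556 clusters), in which 64, 80 and 56 clusters were changed 1.5-fold, 2-fold and 4-fold. Of these, 18.8%, 63.8% and 92.9% were recovered, with 6 false calls among 121 calls. Fewer clusters were changed there than the 1459 called in the real data, so these shares do not give the power of the main test. Arrays carry no counts, and their number limits the precision. The labels do not say whether replicates are separate cultures, whereas the study's methods describe 3 independent experiments. In these, picked spheres went into either medium, so arrays of both groups may share a culture, and the labels do not say which. The alternatives were the replicate block, limma-trend, cyclic loess, median centring, 2 restrictions of the clusters, array weights, averaged clusters, the methods' t-test and leaving out each array. Tables and plots were made with Python 3.11.15, pandas 2.3.3, scipy 1.17.1 and matplotlib 3.10.9.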

Additional observations from a re-analysis of the deposited data

How the results depend on the processing

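Lox kept its direction and its call under all 16 alternatives (1.58 to 1.80), and Loxl1 stayed outside the threshold under all 16 (0.09 to 0.49). The call of Lox was narrow with the methods' t-test after Benjamini-Hochberg (adjusted p = 0.0496). Loxl4 kept its direction throughout and its call except with the methods' t-test after Benjamini-Hochberg, where neither its difference of 1.28 nor that of 1.27 on the dimmer cluster passed and 1 member was called. The sign of Loxl3 turned without proliferation replicate 1 (0.05) and without differentiation replicate 1 (0.04). With 1 array left out the difference lay from 1.58 to 1.80 for Lox, 1.19 to 1.37 and 1.18 to 1.40 for the clusters of Loxl4, 0.09 to 0.49 for Loxl1 and -0.06 to 0.05 for Loxl3.

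Counts of called genes in the lists moved more. With 1 array left out they ran from 0 to 1 for fibrillar collagens, elastic fibre, TGF-beta and other amine oxidases, from 1 to 3 for proteases and partners, from 1 to 2 for lysine hydroxylation and from 0 to 2 for hypoxia. With the replicate number as a block they were 0 for fibrillar collagens and 1 each for proteases and lysine hydroxylation, and Lox and Loxl4 kept their calls, while Furin (adjusted p = 0.12) and Tll1 (adjusted p = 0.0815) did not. Same-numbered arrays did not deviate together (r = -0.00301, 0.0898 and -0.0742), so the numbers were not taken as pairs. This does not show that the groups came from separate cultures, and the main test treats all arrays as unpaired. Limma-trend gave 1 for elastic fibre. The count for proteases was 4 with limma-trend, with either restriction of the clusters and with averaged clusters. Bmp1 passed with limma-trend (adjusted p = 0.0257), both restrictions (0.0255 and 0.0212) and array weights (0.000963). It did not pass with the replicate block (adjusted p = 0.12), cyclic loess (0.0662), median centring (0.0557) or the methods' t-test after Benjamini-Hochberg (0.161). Clusters at or above the median gave 2 for collagen IV and 1 each for elastic fibre and TGF-beta. Clusters with 1 symbol gave 1 for elastic fibre, 4 for lysine hydroxylation and 1 for TGF-beta, and averaged clusters gave 1 for collagen IV, 1 for elastic fibre, 4 for lysine hydroxylation and 1 for TGF-beta. Array weights, which called 35.8% of all clusters against 4.1%, gave 7 for fibrillar collagens, 2 for collagen IV, 9 for elastic fibre, 5 for proteases, 2 for copper, 11 for lysine hydroxylation, 4 for TGF-beta, 6 for hypoxia and 2 for other amine oxidases. The methods' t-test gave 1 for TGF-beta with its minimum fold and, after Benjamini-Hochberg, 0 for fibrillar collagens and proteases and 1 each for lysine hydroxylation and hypoxia. The cause of these moves was not tested beyond the number of clusters or arrays that each alternative leaves. Signal near background was not assessed, as no detection calls were used.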
